A study of Drosophila melanogaster with 12 samples.

Results

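Heads of male fruit flies (Drosophila melanogaster) that had eaten the convulsant pentylenetetrazole (PTZ) and then the antiepileptic ethosuximide (ETH) were compared on day 10 with heads of untreated males, on 4 spotted cDNA arrays with 2 colours. The 4 arrays were chosen by their titles, which name the PTZ-ETH treatment, day 10 and replicates 1 to 4. They are 4 of the 12 arrays of the series, and the other 8 belong to 2 groups harvested on day 14. Every annotated gene measured on the 4 arrays was considered. Of 13824 probes per array, 9479 had a value on at least 3 of the 4 arrays and were tested, and 6093 of these carried a single gene name, which gave 5591 genes.

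The treated flies were unmated Oregon-R wild type males, aged 3 to 4 days at the start and kept 30 to a vial. They spent 7 days on food with 8 mg/ml PTZ and the next 3 days on food with 3.48 mg/ml ETH. The untreated flies were males of the same strain and age that stayed on normal food until the same harvest. Each array was a biological replicate with its own treated and its own untreated pool of heads, so a value is a ratio between 2 pools of many flies. The treated RNA was in the red dye (Cy5) in replicates 1 and 2 and in the green dye (Cy3) in replicates 3 and 4, the dye swaps. The flies received both drugs in sequence, so a difference belongs to the sequence as a whole. In bulk heads, fewer cells of a type and less RNA per cell cannot be told apart.

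PTZ blocks chloride channels opened by the inhibitory transmitter GABA, and ETH blocks low-voltage-activated (T-type) calcium channels in mammals. Insects clear many foreign compounds with cytochrome P450 enzymes, glutathione S-transferases and UDP-glycosyltransferases, and several of these genes in flies are induced by drugs, caffeine or insecticides. A fly head holds brain, compound eyes, antennae and mouthparts, muscle and a fat body, which is the tissue that resembles liver and fat.

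Values are log2 ratios of treated over untreated heads, so 1 is a doubling and 0 is no difference. Between 9106 and 10433 probes had a value on each day-10 array, against 5077 to 7433 on the day-14 arrays. The deposited medians of the 4 arrays ran from -0.62 to -0.06, and the medians of the 48 print blocks within an array had an SD of 0.22 to 0.37, so each array was centred and corrected for the position of the probe on the slide. The SD over probes was then 0.36 to 0.42 on each array, against 0.23 to 0.30 on the day-14 arrays after the same correction. The arrays give ratios and no levels, so the tissue could not be checked against its markers by level.

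The direction of every value rests on an assumption. Cy5 was taken as the numerator of the ratio on all arrays, and the sign of replicates 3 and 4 was therefore turned. No source used here says whether the swaps had been turned before deposit. As deposited and corrected for position, arrays of the same dye orientation correlated at 0.26 and 0.37 and arrays of opposite orientation at 0.12 to 0.22, over 8212 to 9091 probes that share the slide layout and the dyes. After turning, 831 of the 7461 probes with 4 values had the same sign on all 4 arrays (11.1%), against 2149 (28.8%) without turning. The plot of the dye orientations shows this as a cloud that slopes downward, with a few probes far out along the other diagonal. Results without turning are given beside the main counts.

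**Figure D1:**
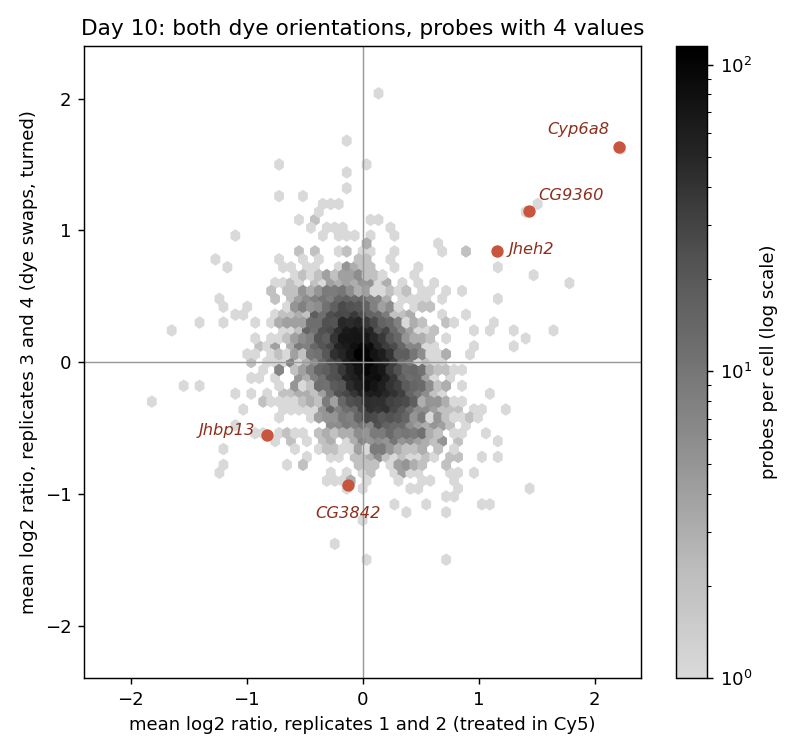
Mean log2 ratio of replicates 3 and 4 (dye swaps, turned) against that of replicates 1 and 2 (treated RNA in Cy5) for the 7461 probes with 4 values at day 10. The shade gives the number of probes per cell on a log scale. Cyp6a8, CG9360 and Jheh2 lie in the upper right and Jhbp13 in the lower left, while the bulk of the probes slopes the other way.

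Cyp6a8 and CG9360 rose in the treated heads, and no probe passed limma's test on the lower side with the 4 arrays alone. Cyp6a8, a cytochrome P450 known in flies for its induction by caffeine and barbiturates, had log2 ratios of 1.91, 2.51, 1.53 and 1.73 in replicates 1 to 4. All 4 arrays lay far above 0, with a fitted mean of 1.92 (SE 0.13), or 3.78-fold. CG9360, which RefSeq also lists as FOHSDR, belongs to the short-chain dehydrogenases and had 1.47, 1.40, 1.13 and 1.16. Its 4 values were close to each other, with a fitted mean of 1.29 (SE 0.09), or 2.44-fold. Both had an adjusted p of 0.0366 in limma's moderated test with a dye term and Benjamini-Hochberg adjustment over all 9479 probes. They were 2 called probes, or 0.0211% of those tested (0.0358% of the 5591 genes, read on 1 probe each), while 657 probes (6.93%) had an unadjusted p under 0.05.

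Both genes had opposite signs in the 2 dye orientations as deposited, so that without turning their fitted values were 0.29 for Cyp6a8 and 0.14 for CG9360. No probe was called without turning, and 1782 probes (18.8%) had an unadjusted p under 0.05. With neither centring nor position correction the calls were 13 higher and 2 lower, and the median of all probes shifted to 0.17. With all 12 arrays in the fit they were 13 higher and 10 lower. On the lower side yellow-h and Cyp313a1 then had adjusted p values of 0.0105 and 0.0065. On the higher side CG7382 and Jheh2 were each at 0.00164, and a second Jheh2 probe was at 0.222. CG9445 was at 0.0026, CG2065 at 0.0105, CG11893 at 0.0157 and Cyp12d1-d at 0.0298. Without replicate 1 Cyp6a8 alone was called, at an adjusted p of 0.0343. Without replicate 2, 3 or 4 no probe was called, with an adjusted p of 0.0853, 0.0684 and 0.13 for Cyp6a8, and CG9360 lay between 0.082 and 0.13 without any one of the 4 arrays. A second Cyp6a8 probe read 0.12, 1.59, 0.12 and 0.96, lower than the called probe on every array, and its adjusted p was 0.694. Another had values on replicates 1 and 2 only, of 1.41 and 2.58. With the probes of a gene averaged, Cyp6a8 was at 1.39 and was not called, at an adjusted p of 0.236.

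**Figure D2:**
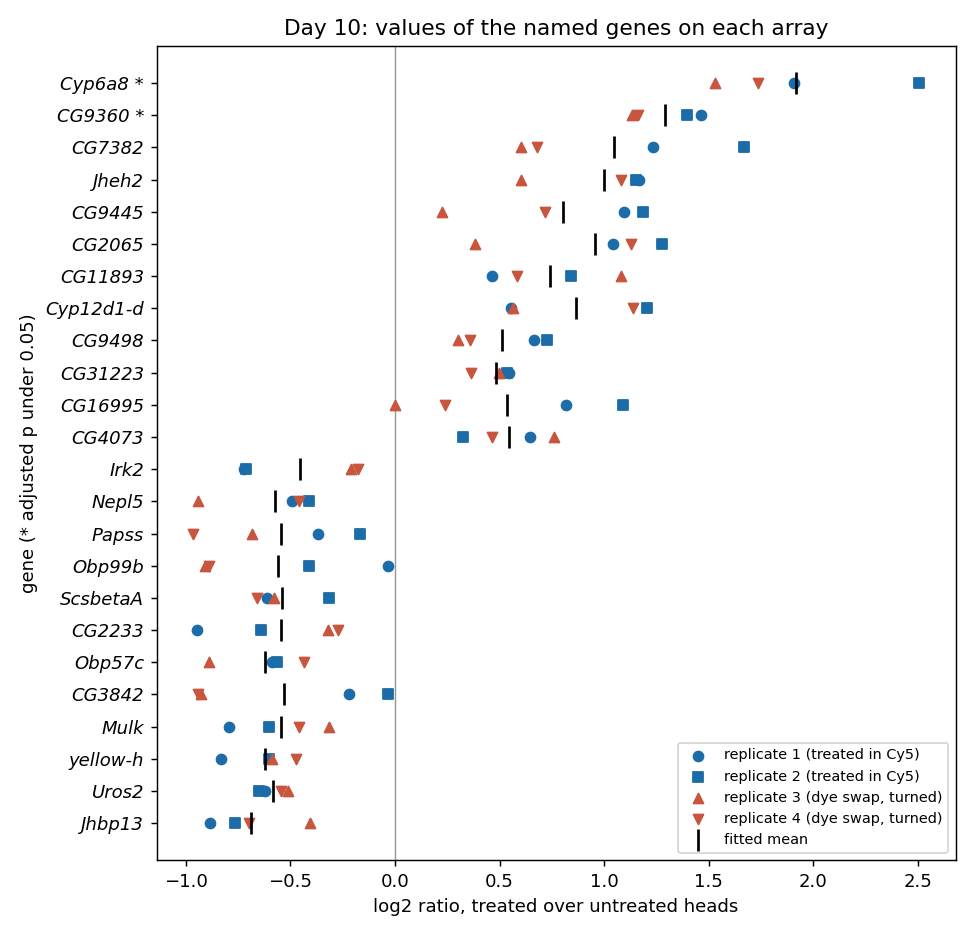
Log2 ratio of treated over untreated heads on each of the 4 day-10 arrays for the 24 genes named by p in each direction, with the fitted mean as a bar. Blue points have the treated RNA in Cy5 and red points are turned dye swaps; only Cyp6a8 and CG9360, marked with an asterisk, passed the adjusted threshold of 0.05.

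The next genes by p with the same sign on all 4 arrays did not pass the test on these 4 arrays alone. Jheh2, an epoxide hydrolase that breaks down juvenile hormone, had 1.17, 1.15, 0.60 and 1.08 in replicates 1 to 4, with replicate 3 apart from the others. Its fitted mean was 1.00 (SE 0.11), at an adjusted p of 0.131. A second Jheh2 probe read 0.55, 1.39, 0.44 and 0.02, above 0 on every array but with a wider spread. CG2065, another short-chain dehydrogenase, had 1.04, 1.28, 0.38 and 1.13, at an adjusted p of 0.331. Cyp12d1-d, a mitochondrial P450 induced in flies by caffeine and insecticides, had 0.56, 1.21, 0.56 and 1.14, at an adjusted p of 0.405. Cyp12d1-d has a near-identical neighbouring copy, and a cDNA spot can bind both.

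CG7382 had 1.24, 1.67, 0.60 and 0.68 and CG9445 had 1.09, 1.18, 0.23 and 0.72. Both were above 0 on every array and higher in the Cy5 pair than in the turned swaps. A second CG7382 probe had a fitted value of 0.003, so the 2 probes of this gene disagree. CG11893, with 0.47, 0.84, 1.08 and 0.58, and CG9498, with 0.66, 0.73, 0.30 and 0.36, were above 0 throughout. The remaining higher genes by p were CG31223 at 0.49 (SE 0.09), CG4073 at 0.55 (SE 0.11) and CG16995 at 0.54 (SE 0.11). CG4073 has a second probe that read 0.69, 0.19, -1.13 and -0.82, with opposite signs in the 2 orientations.

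Among the genes with negative values on all 4 arrays, none passed the test. Jhbp13, of the juvenile hormone binding protein family, had -0.88, -0.77, -0.41 and -0.70, a fitted mean of -0.69 (SE 0.10) and an adjusted p of 0.315. Uros2 had the narrowest spread of these genes, with -0.62, -0.65, -0.51 and -0.54. The gene yellow-h, a member of the yellow family, had -0.83, -0.60, -0.59 and -0.47. Its adjusted p was 0.373, the same as for Uros2.

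None of the next genes passed the test either, and ScsbetaA, Papss, Nepl5 and CG3842 were above 0 when the swaps were not turned. ScsbetaA, a subunit of the succinyl-CoA synthetase of the TCA cycle, had -0.61, -0.32, -0.58 and -0.66. Mulk, a lipid kinase, had -0.79, -0.60, -0.32 and -0.46 on one probe, and a fitted value of 0.02 (SE 0.09) on another with 4 values. Papss, which makes the activated sulphate used by sulphotransferases, had -0.37, -0.17, -0.69 and -0.97. Another Papss probe had a fitted value of -0.15, and a further one read 0.44, 0.25, -1.05 and -1.25, with opposite signs in the 2 orientations. Nepl5, a neprilysin-like peptidase, had -0.49, -0.41, -0.94 and -0.46, with replicate 3 lower than the rest. CG3842 had -0.22, -0.03, -0.93 and -0.94, so its value came mostly from the dye swaps. CG2233 lay at -0.55 (SE 0.10). Irk2, an inwardly rectifying potassium channel, had -0.72, -0.71, -0.21 and -0.18, with the 2 orientations apart from each other.

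Gene families were described by counts and medians, with 1 probe per gene, beside the same figures over all 5591 genes. Over all genes the median log2 ratio was 0.003, 50.7% of genes had a fitted value above 0, 2.97% had an unadjusted p under 0.05 and a higher value, and 4.15% had one and a lower value. Of 4471 genes with 4 values, 5.5% were above 0 on all 4 arrays and 5.1% below 0 on all 4. No set was tested. Cyp6a8 and CG9360 were the only list members past the adjusted threshold.

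Of 48 P450 genes tested, 29 had a value above 0, 8 had an unadjusted p under 0.05 with a higher value and 4 with a lower one. Of the 35 with 4 values, 6 were above 0 on all 4 arrays and 0 were below on all 4. In clan 3, which holds the Cyp6 and Cyp9 enzymes, 12 of 22 genes were above 0 and the median was 0.05, against 9 of 22 and -0.04 when the swaps were not turned. After Cyp6a8 its smallest p values belonged to Cyp6a20 at 0.50 (SE 0.15), which has been linked to male aggression, and Cyp6d5 at 0.47 (SE 0.15). Cyp6a20 read 0.17, 0.95, 0.50 and 0.36, with replicate 2 the highest.

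Clan 4 was spread to both sides. There, 15 of 20 genes were above 0 with a median of 0.06, 4 genes had an unadjusted p under 0.05 on the higher side and 3 on the lower. Cyp313a1 was measured on 3 arrays, at -0.61, -0.85 and -1.48, with a fitted mean of -1.10 (SE 0.13) and an adjusted p of 0.289. Cyp4d21 had -0.67, 0.17, -1.55 and -1.16, so replicate 2 went the other way. Cyp4p1 was above 0 throughout, with 0.45, 0.62, 0.33 and 0.32, and so was Cyp4e2, with 0.49, 0.96, 0.13 and 0.25. Cyp4d20 averaged 0.73 through a value of 1.80 in replicate 1. In the mitochondrial clan Cyp12d1-d stood alone, and the other 4 genes lay between -0.24 and 0.18.

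Glutathione S-transferases, which couple glutathione to reactive compounds, were above 0 in 12 of 17 genes, with a median of 0.07. Those with an unadjusted p under 0.05 were 4, all higher, where 2.97% of all genes met that mark. Of the 10 genes with 4 values, 1 was above 0 on all 4 arrays and 1 below 0 on all 4. GstD1 had 0.20, 0.57, 0.73 and 0.39, above 0 on every array. GstD5 had 1.60 and 1.52 in the Cy5 pair and 0.10 on its only swap. GstE3 and GstD2 were measured on 3 arrays each, with fitted values of 0.56 (SE 0.13) and 0.42 (SE 0.13). The GstD genes lie in a cluster of similar sequences, and their spots may share signal. None of the 4 passed the adjusted threshold, with adjusted p values of 0.405 to 0.65.

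UDP-glycosyltransferases, which attach sugars to foreign compounds, were above 0 in 4 of 10 genes, with a median of -0.03. Ugt37A1 had a fitted value of 0.78 that came from 1 array, with 3.06 in replicate 3 and -0.30, 0.01 and 0.36 elsewhere. Multidrug transporters were above 0 in 2 of 6 genes, between -0.22 and 0.13. Among regulators of the response to foreign compounds and oxidants, Keap1 was at 0.20 (SE 0.13) and the nuclear receptor Hr96 at 0.12 (SE 0.15). Oxidative defence genes had a median of 0.004, with Sod3 at -0.38 (SE 0.10) and below 0 on all 4 arrays, and Sesn at 0.30 (SE 0.12) and above 0 on all 4. Of 20 short-chain dehydrogenases, 7 were above 0, and CG9360 and CG2065 were the 2 with an unadjusted p under 0.05. The others lay between -0.30 and 0.21, and the list median was -0.08, or 0.03 without position correction.

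**Figure D3:**
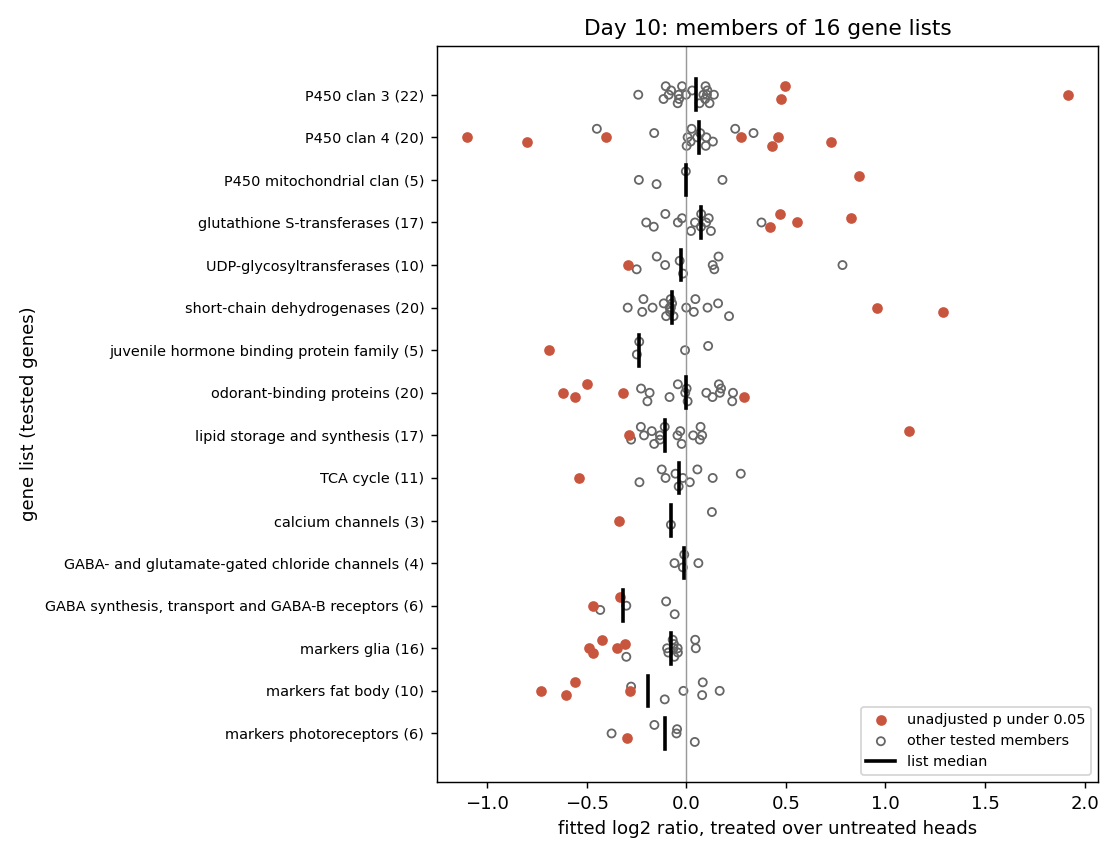
Fitted log2 ratio of treated over untreated heads for every tested member of 16 gene lists at day 10, with the list median as a bar. Filled points have an unadjusted p under 0.05. Cyp6a8 and CG9360 are the points at 1.92 and 1.29; the 6 genes of the GABA list lie below 0 here, and Gad1 and Gs1 lie at 0.14 and 0.20 without position correction.

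None of the tested channel genes related to the known targets of the 2 drugs passed the test. Rdl, the main GABA-gated chloride channel of flies, and Ca-alpha1T, their T-type calcium channel, had no tested probe here. Of the related chloride channels, Lcch3, a GABA receptor subunit, had -0.13, 0.25, -0.17 and -0.02. GluClalpha, the glutamate-gated channel, had a fitted value of 0.06 (SE 0.11), alka -0.06 (SE 0.12) and CG6927 -0.01 (SE 0.09). All 4 lay within 1 SE of 0, with adjusted p values of 0.936 to 0.992. Without position correction Lcch3 was at -0.25, alka at -0.24 and CG6927 at 0.24.

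Among calcium channel genes, Ca-alpha1D, the L-type pore subunit, had 0.21 and 0.04 in the Cy5 pair and -0.81 on its only swap. The signs differed between orientations, the fitted value was -0.34 (SE 0.13), and the adjusted p was 0.712. The auxiliary subunits Ca-beta and stj were at 0.13 (SE 0.10) and -0.08 (SE 0.12). In the sodium leak channel complex, unc80 had 0.38, 0.01, 0.69 and 0.25, above 0 on all 4 arrays, and unc79 lay at -0.04 (SE 0.15). Among 12 voltage-gated sodium and potassium channel genes and their relatives, 8 were above 0 with a median of 0.06, and Irk2 was the one with an unadjusted p under 0.05. Ork1 averaged 0.37 through a value of 1.76 in replicate 3.

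The GABA list holds genes that make, carry or break down GABA or encode its metabotropic receptors, and glutamine synthetases. Its 6 tested genes all had fitted values below 0, but Gad1 and Gs1 were at 0.14 and 0.20 without position correction. Of all genes 50.7% lay above 0. The median of the 6 list genes was -0.32, and it was -0.02 when the swaps were not turned. Gabat, the transaminase that breaks down GABA, had -0.06, -0.18, -0.49 and -0.61, below 0 on every array. Gat, the glial GABA transporter, had -0.96, -0.39 and -0.27 on 3 arrays. The glutamine synthetase Gs2 had -0.96, -0.30, 0.03 and 0.02, so the negative value came from the Cy5 pair. GABA-B-R3, a metabotropic receptor, had -0.42, -0.84 and -0.06 on 3 arrays. Gad1, which makes GABA, was at -0.10 (SE 0.12) and Gs1, a second glutamine synthetase, at -0.06 (SE 0.11). None passed the test, with adjusted p values of 0.601 to 0.937.

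Of 16 tested glial markers 2 were above 0, between -0.49 and 0.05 with a median of -0.08, and 5 had an unadjusted p under 0.05 on the lower side, against 4.15% of all genes. Gat and Gs2 are in both lists. The astrocyte gene alrm read -0.93, -0.34, -0.49 and -0.20, the sugar transporter Tret1-1 -0.34, -0.31, -0.77 and -0.28, and Miox -0.54, -0.01, -0.46 and -0.40. All 3 were below 0 on all 4 arrays. The gap junction gene Inx2 had -0.83, -0.38, 0.01 and -0.04. Without turning the median of the list was -0.002. Of 6 neuronal markers, 1 was above 0, between -0.12 and 0.18 with a median of -0.03, or 0.15 without position correction. What part the glial markers have in the values of the GABA genes was not tested.

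Other transmitter systems had scattered values. Of 7 genes for glutamate receptors and handling, KaiR1D, a kainate-type receptor, had the smallest p, with -0.96, -0.47 and -0.32 on 3 arrays. Of 15 genes of the biogenic amines, ple, the tyrosine hydroxylase that starts dopamine synthesis, had -1.58 on its only Cy5 array and 0.27 and 0.39 on the swaps, so its arrays disagree. TyrR, a tyramine receptor, had -1.01, -0.38 and 0.03. Acetylcholine genes stayed between -0.15 and 0.14 in all 8 members, synaptic vesicle genes had a median of -0.001 over 18 members, and neuropeptides had one of -0.003 over 13. The clock photoreceptor cry had -0.46, -0.47, -0.60 and -0.01, negative on all 4 arrays, at an adjusted p of 0.632.

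Genes of the fat body and of secreted carriers gave several of the lower values. Of 20 odorant-binding protein genes, small secreted carriers of the antenna and other tissues, 10 were above 0 with a median of -0.003. On the lower side 4 had an unadjusted p under 0.05, against 4.15% of all genes, and on the higher side 1. Of the 17 with 4 values, 3 were above 0 on all 4 arrays and 3 below 0 on all 4. The list medians were 0.34 and 0.10 in the Cy5 pair and -0.24 and -0.21 on the turned swaps, so they split by dye orientation. Obp57c had -0.59, -0.57, -0.89 and -0.44, below 0 on every array, and a second Obp57c probe had a fitted value of -0.34 (SE 0.12). Obp99b had -0.03, -0.41, -0.91 and -0.89 on one probe. On another it had -1.30, -1.30 and -1.45 on 3 arrays, with a fitted mean of -1.37 (SE 0.12) and an adjusted p of 0.131. Obp19d and Obp8a were at -0.50 (SE 0.14) and -0.32 (SE 0.09), and Obp8a was below 0 on all 4 arrays.

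Obp99b is also among the fat body markers, of which 3 of 10 were above 0, between -0.73 and 0.17 with a median of -0.19, and 4 had an unadjusted p under 0.05 on the lower side. Lsp2, a storage protein, had -0.15, -0.11 and -1.33 on 3 arrays, so its value rests on the swap. The gene fit, which is expressed in the fat body of the head, had -0.92, -0.30, -0.22 and -0.96, and Fbp2 had 0.26, -0.14, -0.60 and -0.65. Without turning the median of this list was 0.10. In the juvenile hormone binding protein family the median was -0.24 and 1 of 5 genes was above 0. Its medians in replicates 1 to 4 were -0.705, 0.019, -0.065 and -0.123, so replicate 1 was the lowest by far. Only 2 of the 5 genes had 4 values. Whether the fat body markers have a part in the values of the odorant-binding protein genes was not tested.

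Lipid storage and synthesis genes had a median of -0.11 over 17 members, 5 of them above 0. Dgat2, which completes triglyceride synthesis, was apart from them with 1.19, 1.18 and 1.05 on 3 arrays. Its fitted mean was 1.12 (SE 0.12), the highest of the list, at an adjusted p of 0.217. Of the chitin genes, the chitinase Cht8 had -0.62, -0.30 and -1.40 on 3 arrays. TCA cycle genes other than ScsbetaA lay between -0.24 and 0.27. Tubulin genes had only 2 tested members, alphaTub85E at -0.54 (SE 0.14) and betaTub56D at -0.26 (SE 0.21).

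The larger housekeeping groups stayed near 0. The medians were 0.07 for 21 heat shock proteins and chaperones, -0.006 for 29 proteasome subunits, -0.03 for 36 mitochondrial ribosomal proteins, 0.01 for 30 translation factors and 0.02 for 28 respiratory chain genes. Prosalpha4T2, a testis form of a proteasome subunit, had -0.45, -1.29, -0.43 and -0.18, the lowest of its list. Smaller housekeeping groups had lower medians, which changed sign under other processing. Glycolytic genes had a median of -0.10 over 15 members, 4 of them above 0. Cytosolic ribosomal proteins had one of -0.13 over 7 members, 2 of them above 0, and ATP synthase genes one of -0.07 over 9. Without turning the medians were 0.14 for glycolytic genes, 0.03 for cytosolic ribosomal proteins and -0.01 for ATP synthase genes. Without position correction they were -0.04, -0.14 and 0.09. Of 2 immune peptides and 11 recognition and signalling genes tested, none had an unadjusted p under 0.05, and Tep4 had the lowest value, -0.50 (SE 0.23).

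Markers of the eye and of tissues outside the brain were checked for their own values. Of 6 photoreceptor markers, 1 was above 0 with a median of -0.11. The photoreceptor gene chp had 0.18 and 0.47 in the Cy5 pair and -1.05 and -0.79 on the turned swaps, so it was brighter in Cy5 on all 4 arrays. Without turning the photoreceptor median was 0.45. Muscle markers had a median of -0.05 over 11 genes, hemocyte markers 0.08 over 6, and gut markers 0.05 over 5, against 0.35 for gut without turning. Of 3 accessory gland and testis markers, Acp53Ea had 2.53 in replicate 1 and 0.04, -0.35 and 0.59 elsewhere.

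Over the 46 lists with at least 5 tested genes, 14 had a median above 0, against 29 without turning and 27 without position correction. The plot of list medians shows both readings side by side. Lists above 0 under both included glutathione S-transferases, P450 clan 4, hemocyte and gut markers, heat shock proteins and chaperones, and translation factors. Lists below 0 under both included the juvenile hormone binding protein family, UDP-glycosyltransferases, multidrug transporters and the GABA genes. P450 clan 3, odorant-binding proteins, fat body markers and photoreceptor markers were among the lists that changed sign.

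**Figure D4:**
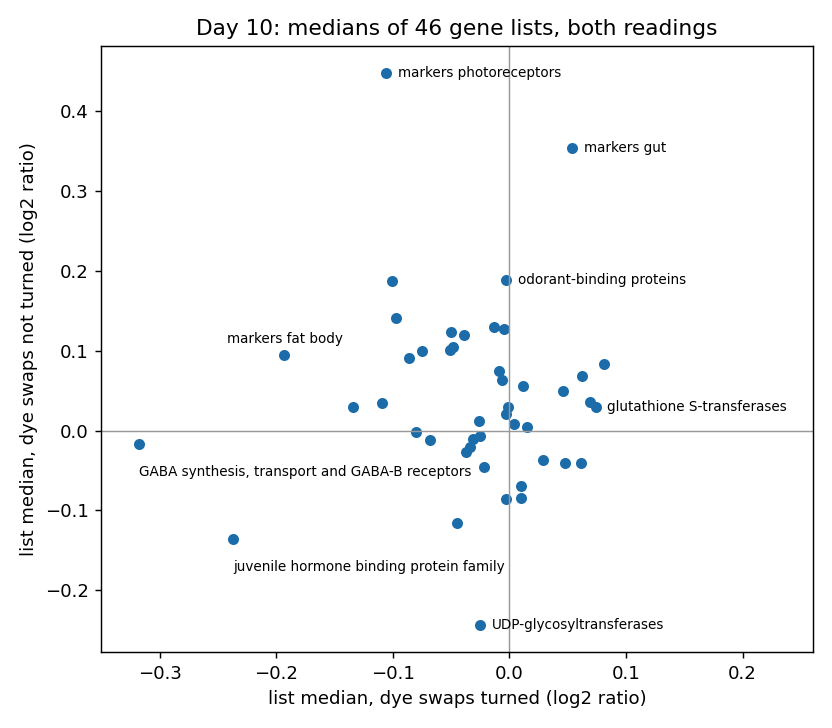
Median log2 ratio of 46 gene lists at day 10 with the dye swaps turned (horizontal) and not turned (vertical), each point 1 list. Photoreceptor markers are at -0.11 and 0.45, gut markers at 0.05 and 0.35, and GABA genes at -0.32 and -0.02.

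The day-10 response was then set against day 14 of the same arm, where flies had the same PTZ and ETH food and then 4 days on normal food (PTZ-ETH-NF). The contrast asks whether the ratio to untreated heads differed between day 10 and day 14, and not whether a difference from untreated heads remained on day 14. Of 4451 probes with values on at least 3 arrays of each group, 221 (4.97%) had an unadjusted p under 0.05. The 3 called probes, or 0.0674%, all had a higher ratio on day 10. CG9360 was one of them. Its ratios of 1.47, 1.40, 1.13 and 1.16 on day 10 stood against 0.03, -0.29, 0.14 and -0.25 on day 14. The groups did not overlap, but genes are named here by the smallest p of this same contrast, which favours separate values. The share of the 4451 probes without overlap is not given here. The means were 1.29 ± 0.17 on day 10 and -0.10 ± 0.21 on day 14 (SD, n = 4 arrays each), a difference of 1.38 (SE 0.15), at an adjusted p of 0.00223 in limma's test with a common dye term.

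Jheh2 was the other named gene that differed. Its ratios were 1.17, 1.15, 0.60 and 1.08 on day 10, against -0.49, 0.02, -0.07 and -0.18 on day 14, again with no overlap. The means were 1.00 ± 0.27 on day 10 and -0.18 ± 0.22 on day 14 (SD, n = 4 arrays each), a difference of 1.18 (SE 0.17), at an adjusted p of 0.0257. The second Jheh2 probe had a difference of 1.04 (SE 0.20) and an adjusted p of 0.109. The third called probe had no gene in the annotation used here.

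CG9360 kept its call without any one of the 8 arrays, while Jheh2 lost it without day-10 replicate 1, 2 or 4 or day-14 replicate 1 or 4, at adjusted p values of 0.0511 to 0.0966. Jheh2 also lost it without position correction, at an adjusted p of 0.308, when the arrays were scaled to a common median absolute deviation, at 0.123, and with the replicate number as a block, at 0.0776. With a dye term for each day the calls numbered 7, with adjusted p values of 0.00143 for CG9360 and 0.0101 for Jheh2. Without day-10 replicate 3 the calls numbered 8, and without turning the swaps the difference of CG9360 was 0.18 and that of Jheh2 0.22.

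**Figure D5:**
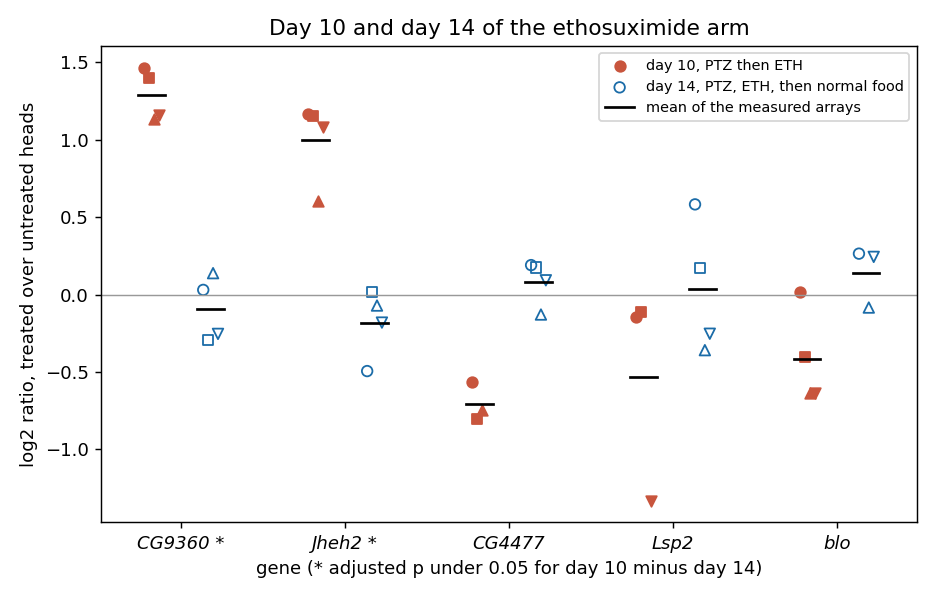
Log2 ratio of treated over untreated heads on each array of day 10 (filled) and of day 14 of the ethosuximide arm (open) for 5 genes named by the day 10 minus day 14 contrast; the shapes are replicates 1 (circle), 2 (square), 3 (upward triangle) and 4 (downward triangle), and bars are means. CG9360 and Jheh2 do not overlap between the days.

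The other named genes with values on at least 3 arrays of each day did not pass this contrast. Those with fewer values on day 14, among them CG11893, Cyp12d1-d, Uros2, Mulk, Nepl5 and Irk2, were not tested in it. CG7382 averaged 1.05 ± 0.50 (SD, n = 4) on day 10 and 0.04 ± 0.07 (SD, n = 3) on day 14, at an adjusted p of 0.0806. CG9445 averaged 0.81 ± 0.44 on day 10 and -0.05 ± 0.23 on day 14 (SD, n = 4 each), at an adjusted p of 0.0839. CG2065 had a difference of 0.90 (SE 0.22), at an adjusted p of 0.456. The called Cyp6a8 probe had no value on any day-14 array, so its difference could not be measured. Jhbp13 was negative on both days, at -0.69 ± 0.20 (SD, n = 4) on day 10 and -0.35 ± 0.13 (SD, n = 3) on day 14. CG2233 averaged -0.55 ± 0.31 (SD, n = 4) on day 10 and -0.85 ± 0.51 (SD, n = 3) on day 14.

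The genes with the smallest p on the other side were lower on day 10. CG4477 had -0.56, -0.81 and -0.75 on 3 arrays of day 10, against 0.19, 0.17, -0.13 and 0.09 on day 14. The adjusted p of its difference was 0.0839. Lsp2 differed by -0.71 (SE 0.17) and blo by -0.61 (SE 0.16), at adjusted p values of 0.381 and 0.567. Gat, at -0.54 ± 0.37 on day 10 and 0.03 ± 0.22 on day 14 (SD, n = 3 each), did not pass either, at an adjusted p of 0.68.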

How the data were processed

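Per the series' design text, the authors scanned the slides, quantified spots in GenePix Pro 6.0 and normalized the ratios in Acuity 4.0. Spots with intensity under 100 units and under 2 times the average background were ignored, and spots were filtered on saturation, flags and uniformity. The list of filters breaks off there in the text used here. Deposited were log2 ratios between both channels, a scale read from the values: as linear ratios, 100% of the 71 lowest fell on whole steps of 0.001, within 0.05 of a step. The offset of each array's median has no stated origin, and neither has the direction of the ratio on the dye swaps.

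The 2 adjacent spots of a probe were averaged, and spots at the ceiling of 16.61 were left out. Each array was centred on its median, then on the median of each of 48 print blocks. A loess surface (span 0.4, degree 1) over the rows and columns of each block was subtracted, and dye swaps were turned. A mean and a dye term per probe were fitted to the 4 day-10 arrays alone with limma 3.58.1 in R 4.3.3, requiring values on 3 arrays. A standard error near 0.1 rests on 2 residual degrees of freedom, or 1 on 3 arrays, and on variance moderation (prior degrees of freedom 4.05). Tests were 2-sided, with Benjamini-Hochberg adjustment over all tested probes and a threshold of 0.05. Day 10 minus day 14 was fitted to the 8 arrays of the ETH arm with a common dye term. Precision is limited by how many arrays there are. Pairs of day-10 arrays shared at most 0.157% of their values, so none was counted as a duplicate.

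The platform annotation gave 1 gene to 7558 probes, several to 51 and none to 6215, and 7447 of the 7558 matched a current RefSeq symbol. Probes with several genes named none, and for the lists a gene was read on the probe with most values. Named genes are those past the threshold, the smallest p values up to 12 in each direction among probes with the same sign on 4 arrays, up to 4 members per list, all tested chloride channel, calcium channel and GABA genes, and, for day 10 minus day 14, those past the threshold or the smallest 3 in a direction. A gene on 3 arrays was fitted without the missing one, and nothing was imputed. The members, the 55 gene lists and the naming rule were chosen with earlier results of these data known. The procedure was checked on simulated data. No genome build is given in the sources used here, so no coordinates are printed.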

Additional observations from a re-analysis of the deposited data

Results flagged for a closer look

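For day 10 minus day 14, 2 named genes passed the test of the difference itself. CG9360 differed by 1.384 and Jheh2 by 1.183 on the log2 scale, higher on day 10 in both cases. The call of CG9360 held without any one of the 8 arrays, while Jheh2 lost its call without any 1 of 5 of them, without position correction (adjusted p = 0.308), after scaling to a common median absolute deviation (0.123) and with the replicate number as a block (0.0776).

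Among 81 sets of 4 array values checked for a single array apart from the rest, 2 had one, and chance gives about 1 in 20. Jheh2 read 0.602 in replicate 3, below 1.081 to 1.168 on the other arrays. Nepl5 read -0.942 in replicate 3, below -0.493 to -0.411 on the other arrays.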

How the results depend on the processing

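The count of 2 called probes on day 10 stayed at 2 when values on all 4 arrays, on at least 1 array of each orientation or on both spots were required, with robust moderation, and with a loess span of 0.2, an alternative chosen after seeing the data. It was 1 without position correction, where CG9360 lost its call at an adjusted p of 0.0698. It was also 1 with probes of a gene averaged, where Cyp6a8 lost its call at 0.236. The count was 0 without a dye term, with the print-block median only, after scaling all arrays to 1 spread and without moderation. It was also 0 with the swaps not turned, at a span of 0.2 too. It was 15 with neither centring nor position correction, 23 when all 12 arrays shared the fit (13 higher, 10 lower), and 1588 without position correction and without turning, an alternative also added after seeing the data. Leaving out 1 array gave 0 to 1. Cyp6a8 was called in 9 of its 18 alternatives and CG9360 in 8.

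Without turning, the fitted value changed sign to -0.089 for CG11893, -0.063 for CG4073, 0.404 for CG3842, 0.044 for Obp57c, 0.077 for ScsbetaA, 0.339 for Obp99b, 0.279 for Papss, 0.124 for Nepl5, 0.372 for Cyp313a1, 0.466 for Ca-alpha1D, -0.114 for Ca-beta, 0.077 for Lcch3, -0.160 for GluClalpha, 0.031 for Gs1, 0.213 for Gabat and 0.016 for GABA-B-R3. The day 10 minus day 14 differences of Lsp2 and blo became 0.106 and 0.246. The channel and GABA genes near 0 changed sign under other settings too. Without position correction they were 0.042 for stj, 0.240 for CG6927, 0.199 for Gs1 and 0.143 for Gad1. With the print-block median only they were 0.098 for CG6927, 0.220 for Gs1 and 0.053 for Gad1. With neither centring nor position correction they were 0.195 for stj, 0.394 for CG6927, 0.353 for Gs1 and 0.297 for Gad1. CG6927 was 0.024 at a span of 0.2, and Lcch3 was 0.007 after scaling all arrays to 1 spread. Leaving out 1 array, the values ran from -0.198 to 0.042 for stj, -0.171 to 0.051 for alka, -0.110 to 0.075 for Lcch3, -0.042 to 0.161 for GluClalpha, -0.039 to 0.017 for CG6927, -0.169 to 0.051 for Gs1 and -0.238 to 0.033 for Gad1. The cause of these changes was not tested.

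For day 10 minus day 14, the 3 calls became 7 with a dye term per group, 13 with all 12 arrays in the fit, 9 over replicates 1 and 2 alone (added after seeing the data), and 2 to 8 without 1 array. With the replicate number as a block 2 probes were called, with an adjusted p of 0.0157 for CG9360 and 0.0776 for Jheh2. Under the common dye term, deviations of arrays of the 2 days correlated at -0.466 to -0.197 within a dye orientation and 0.205 to 0.448 across. A dye term shared by both days gives correlations of these signs by itself, so that check could not show pairing. Whether the dye effect differed between the days was not tested. With a dye term per day, added after seeing the data, same-numbered arrays correlated at 0.0581 in the Cy5 orientation and 0.0203 on the swaps, and the numbers were not taken as pairs. Of 46 lists, 14 had a median above 0, against 29 without turning, 27 without position correction and 14 with probes of a gene averaged.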
